A study of Mus musculus with 30 samples.

Results

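The Shh regulatory domain of mouse chromosome 5 runs from Rbm33 and Shh across a gene desert to Rnf32, Lmbr1, Nom1 and Mnx1. It was read here as every deposited CTCF or RAD21 peak on mm10 that touches chr5:28216836-29578470, the span of those 6 genes with 100 kb added on both sides, a stretch of 1.36 Mb. It held 563 peak entries of the 1352462 in all 30 libraries: 313 of 826969 for CTCF and 250 for RAD21. The region was chosen by position and not by any measured value.

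The libraries came from trunks, taken below the post-occipital region, of B6CBAF1 mouse embryos at E10.5, and were made by ChIPmentation, chromatin immunoprecipitation in which Tn5 transposase adds the sequencing adapters on the beads. CTCF is a zinc-finger protein found at many chromatin loop anchors, and RAD21 is the kleisin subunit of the cohesin ring that extrudes loops. The mutant embryos were homozygous for mutations, made in cis, of CTCF binding sites (CBS) of the Hoxd cluster on chromosome 2. The alleles were Del(CBS1) (3 CTCF and 3 RAD21 libraries), Del(CBS1-2) (1 CTCF and 2 RAD21), Del(CBS1-3) (2 CTCF and 2 RAD21), Del(CBS1-4) (2 CTCF and 2 RAD21), Del(CBS1-5) (2 CTCF and 2 RAD21) and Del(CBS2) (1 CTCF and 1 RAD21). Wild-type (WT) littermates gave 3 CTCF and 4 RAD21 libraries. All embryos came from crosses of heterozygous parents, and no allele was aimed at chromosome 5. Embryos were dissociated one by one; the labels used here do not say that the libraries of a group came from separate litters, so p-values measure the spread between libraries. Whether a library holds 1 embryo or several is not given in the sources used here. The libraries are of trunk tissue, of which few cells make Shh: fewer bound cells and less binding per cell cannot be told apart.

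Shh encodes Sonic hedgehog, a secreted ligand that patterns the neural tube, the somites and the limb bud. In the embryo its expression is directed by enhancers spread over the gene desert, and the limb enhancer known as the ZRS lies in an intron of Lmbr1, a gene for a membrane protein. CTCF sites near Shh and in and beyond Lmbr1 are known to flank this enhancer domain in mouse, where cohesin stopped at such sites helps to set domain borders. Mnx1 encodes a motor neuron homeodomain factor, and Nom1 a nucleolar protein. Rnf32 encodes a RING finger protein and Rbm33 an RNA-binding protein.

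Promoters of 5 of the 6 genes held few peaks, that of Shh was not analysed here, and 3 are shown because they were the promoters of member genes at which RAD21 peaks recurred. Sequences are RefSeq's on GRCm38.p6, the mm10 assembly, from 250 bases before to 50 after a RefSeq start of the gene, on the plus strand. These starts need not be the outer end of the gene span used for distances, and those of Rnf32 and Rbm33 lie inside their spans. Capitals mark a match, on either strand, to a core of the CTCF motif (CC, any 3 bases, AG, any 2 bases, GGC).
Nom1 promoter, chr5:29434417-29434716: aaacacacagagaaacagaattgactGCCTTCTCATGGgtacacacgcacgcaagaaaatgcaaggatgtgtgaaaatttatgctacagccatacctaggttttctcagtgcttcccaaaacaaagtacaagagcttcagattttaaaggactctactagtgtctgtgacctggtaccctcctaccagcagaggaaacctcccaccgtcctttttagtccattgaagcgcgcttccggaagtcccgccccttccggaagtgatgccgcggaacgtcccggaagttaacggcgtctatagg
Rnf32 promoter, chr5:29195743-29196042: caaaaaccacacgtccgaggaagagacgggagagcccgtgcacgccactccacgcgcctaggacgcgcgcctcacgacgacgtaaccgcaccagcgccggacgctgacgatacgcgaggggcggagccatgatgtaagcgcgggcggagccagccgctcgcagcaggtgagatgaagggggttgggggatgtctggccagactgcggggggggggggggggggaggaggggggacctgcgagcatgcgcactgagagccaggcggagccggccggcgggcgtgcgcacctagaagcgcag
Rbm33 promoter, chr5:28316939-28317238: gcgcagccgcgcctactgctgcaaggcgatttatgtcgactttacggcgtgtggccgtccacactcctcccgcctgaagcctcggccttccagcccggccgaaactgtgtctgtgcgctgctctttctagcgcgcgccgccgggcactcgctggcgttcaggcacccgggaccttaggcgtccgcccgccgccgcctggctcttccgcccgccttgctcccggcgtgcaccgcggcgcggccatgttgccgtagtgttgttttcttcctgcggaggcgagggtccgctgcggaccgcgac
The Nom1 promoter had the only match of the 3, at bases 27 to 38 on the minus strand, while 8.61% of the 32851 promoters in the table held a match. A CTCF summit fell inside it in 1 of 11 mutant libraries and 1 of 3 WT libraries, and a RAD21 summit in 2 of 12 mutant libraries and 0 of 4 WT libraries. RAD21 peaks overlapped the Rnf32 promoter in 4 of 12 mutant libraries and 1 of 4 WT libraries, with no CTCF peak in any of the 14 CTCF libraries, and the Rbm33 promoter in 3 of 12 mutant libraries and 1 of 4 WT libraries. CTCF peaks touched the Rbm33 promoter in 3 of 11 mutant libraries and 0 of 3 WT libraries, at folds of 3.33 to 5.37. Fold is the authors' fold enrichment of a peak summit over its own library's background. These promoters were rich in bases G and C, at 71.0% for Rnf32 and 69.7% for Rbm33, against 49.0% for Nom1 and a median of 52.7% over all promoters. The Mnx1 promoter overlapped no peak of either antibody, and the Lmbr1 promoter only 1 CTCF peak, in a mutant library.

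Peak counts in the domain followed the length of each list. Mutant CTCF libraries held 15 to 34 domain peaks (median 21.0) and the WT libraries 19, 19 and 29; mutant RAD21 libraries held 9 to 23 (median 17.5) and the WT libraries 9, 19, 13 and 14. The groups overlapped for both antibodies. The most CTCF peaks, 34, came from the longest list, Del(CBS2) with 88323 peaks, and the fewest, 15, from the shortest pair, Del(CBS1-3) replicate 2 with 40011 and Del(CBS1) replicate 2 with 40667. Per 100000 listed peaks, mutant CTCF libraries had 33.2 to 47.1 and WT libraries 33.2 to 38.7, and mutant RAD21 libraries had 44.9 or more (median 47.95) and WT libraries 40.1, 47.7, 40.0 and 40.9. All 12 mutant RAD21 libraries were above 3 of the 4 WT libraries. Read depth was unknown, so a site without a peak was not detected rather than unbound. At the Hoxd cluster itself, mutant libraries lacked peaks at 1 to 5 of the 11 CTCF sites found in all WT libraries from Evx2 to Hoxd1, while 0.782% to 25.1% of all such sites in the genome had no peak in a mutant library.

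**Figure D1:**
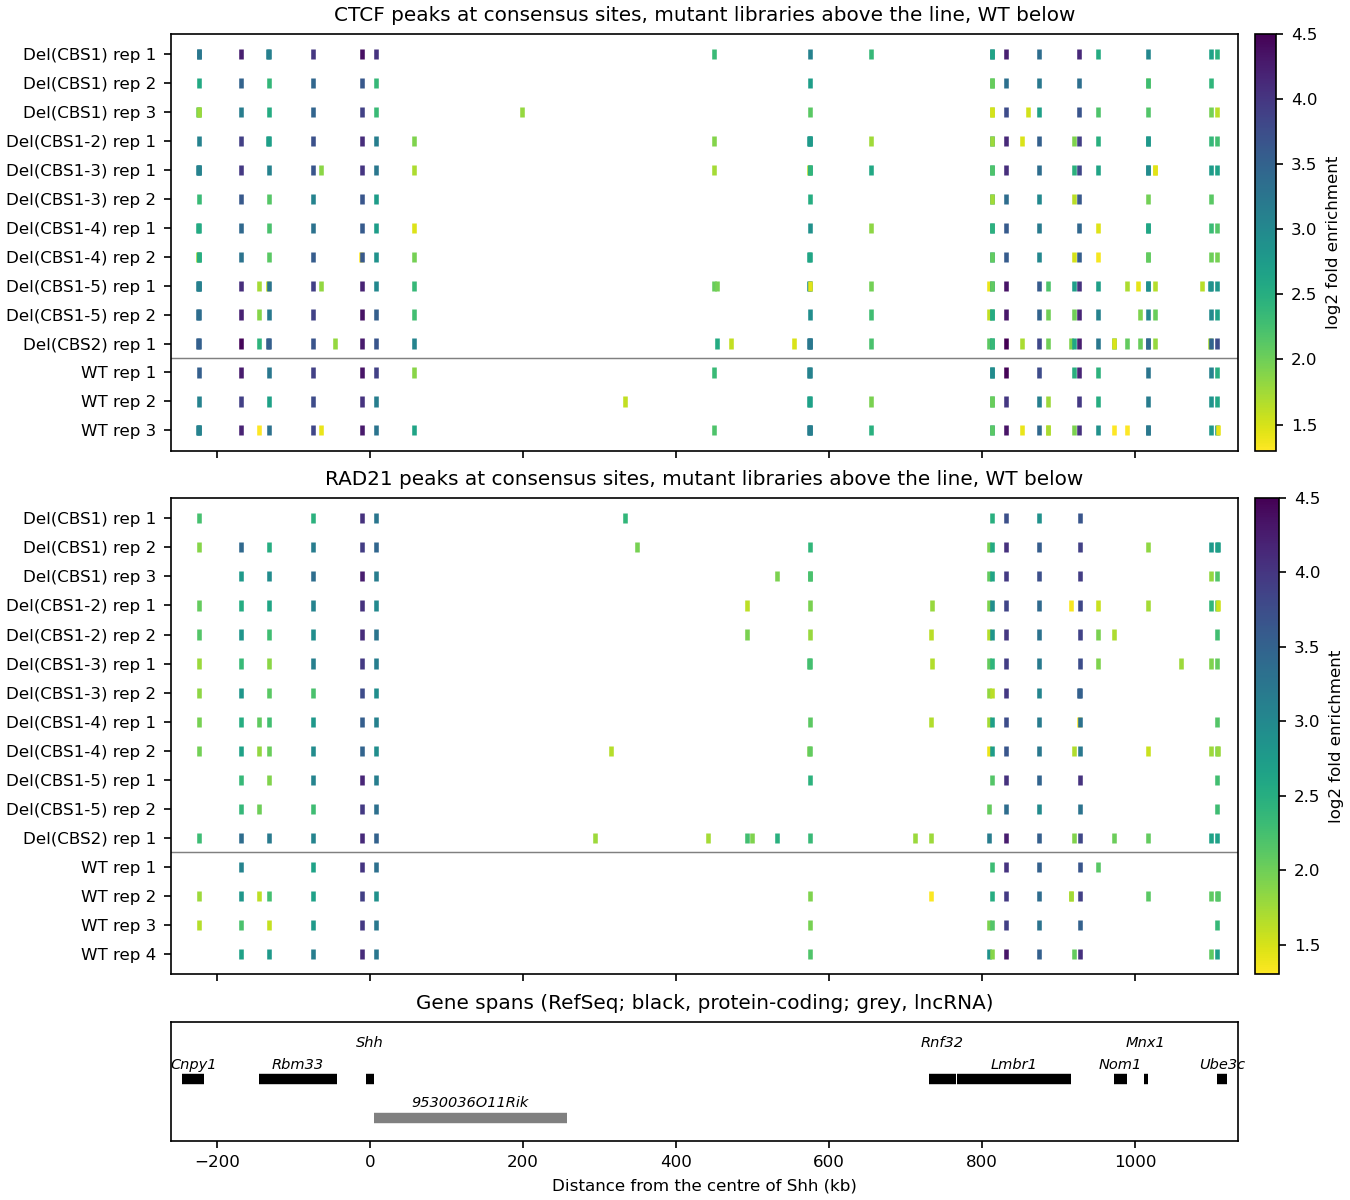
CTCF (top) and RAD21 (middle) peaks at the consensus sites of the domain in each library, mutant libraries above the grey line and WT libraries below it, against distance from the centre of Shh in kb; colour gives the log2 fold enrichment and bars at the bottom are gene spans. The same columns recur in nearly every row at Rbm33, beside Shh and across Lmbr1, and the desert between them holds 1 column present in all CTCF libraries.

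Summits of one antibody within 150 bp of each other were joined into consensus sites, which gave 51 CTCF and 37 RAD21 sites. Of the CTCF sites 14 had a peak in every library, 17 in several, 12 in 1 library, and 8 were minor summits within 1 kb of a site found everywhere. The 14 constant sites held 203 of the 313 CTCF peaks (64.9%). Of the RAD21 sites 6 were found in every library, holding 96 of 250 peaks (38.4%), 20 in several, 10 in 1 library and 1 beside a constant site. Sites found in every library made up 27.5% of the domain's CTCF sites and 25.6% of those of the genome, and 16.2% and 16.3% of the RAD21 sites. The density of constant CTCF sites was 10.3 per Mb in the domain and 12.5 per Mb over the genome, and that of constant RAD21 sites 4.41 and 5.08 per Mb.

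The strongest CTCF site of the domain lay 5450 bp from Shh, between Shh and Rbm33, at 28451390. Strength is given as the percentile of a site's fold within its library, over the 32078 CTCF or 12972 RAD21 sites found in every library, where 100 is the highest. The site was at percentiles 91.1 to 99.3 in the mutant libraries, with the lowest in Del(CBS2), and at 98.4, 98.5 and 99.0 in WT. Its folds were 12.03 to 20.73 in the mutant libraries and 20.08, 16.3 and 19.5 in WT. Close behind it came 29293422, inside Lmbr1, at percentiles 88.6 to 99.5 in the mutant libraries and 99.7, 97.8 and 99.3 in WT. These 2 sites did not differ in rank beyond their spread: the Shh site was the higher of them in 7 of 14 libraries.

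The next pair lay outside Lmbr1 and Rbm33, on the sides away from the desert. The site at 29389541, between Lmbr1 and Nom1 and 11120 bp from Lmbr1, averaged percentile 93.3 ± 3.29 (SD, n = 14), and the site at 28294205, 22631 bp from Rbm33 on its far side from Shh, averaged 92.7 ± 8.29. Their order also varied, and 29389541 was above 28294205 in 5 of 14 libraries. A site inside Rbm33 at 28388379 averaged 81.0 and ranged from 46.6, in the Del(CBS2) library, to 94.5. A second site inside Lmbr1, 29336028, averaged 58.2 ± 14.3.

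The remaining 8 constant CTCF sites were of middle or low rank. The one nearest to Shh, 2846 bp from the gene at 28469947 and inside the lncRNA gene 9530036O11Rik, averaged 45.4 ± 17.4 and ranged from 20.2 to 84.2, both ends in Del(CBS1) libraries. Means of 32.1 and 26.3 were found at 28238461 in Cnpy1 and at 28329667 in Rbm33. The site nearest to Mnx1, 29479467, lay 997 bp from the gene and averaged 23.8, and 29560888, 8354 bp from Ube3c, averaged 17.5. A tandem pair inside Lmbr1, at 29274949 and 29275517, was among the weakest, with means of 19.8 and 6.62. No constant CTCF site was above the next one in the order in all 14 libraries.

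**Figure D2:**
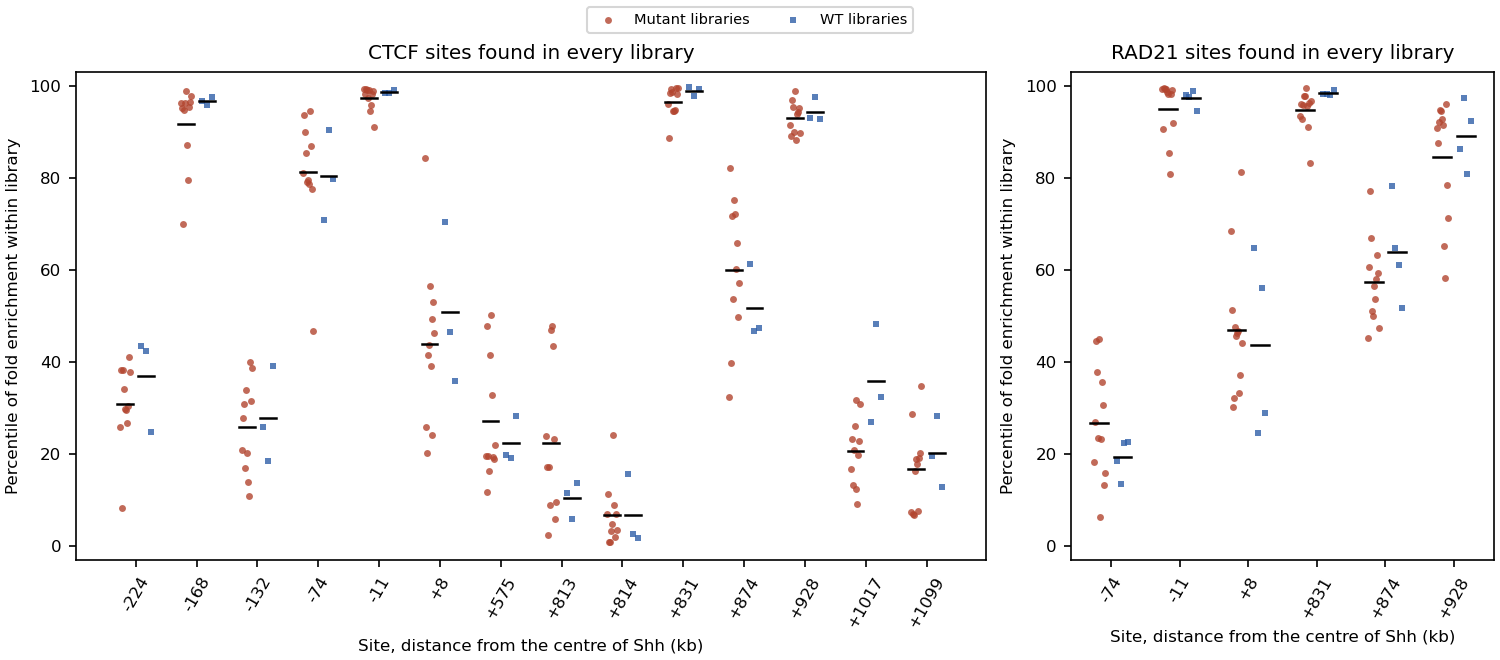
Percentile of fold enrichment within each library (y axis) at the 14 CTCF sites (left) and 6 RAD21 sites (right) found in every library, labelled by distance from the centre of Shh in kb; circles are mutant libraries, squares WT libraries and black bars group means. The ranges of the mutant and WT points overlap at every site, and the CTCF sites at -11 kb and +831 kb are the highest.

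The gene desert was the longest stretch without a constant site. From 28469947 beside Shh to 29036846, 155899 bp from Rnf32, there were 567 kb without a CTCF site found in every library. Of the 32057 such intervals in the genome 1.82% were longer (median 30.1 kb). This share, like that for RAD21 below, sets the longest interval of a region with a gene desert beside all single intervals. It does not say how rare such a region is. The next interval, from 29036846 to the weak Lmbr1 site at 29274949, measured 238 kb, and 6.62% of the genome's intervals were longer. The site between them was modest, at percentiles 11.6 to 50.1 in the mutant libraries and 22.3 ± 5.11 in WT (mean and SD, n = 3). RAD21 had no constant site from 28469987 beside Shh to 29293395 inside Lmbr1, a gap of 823 kb, and 3.79% of RAD21 intervals were longer (median 90.9 kb). That gap was not free of RAD21, since a constant site needs a peak in every list. At the desert CTCF site, RAD21 was found at 29036832 in 9 of 12 mutant and 3 of 4 WT libraries. At the weak Lmbr1 site it was found at 29274925 in 10 of 12 mutant and 4 of 4 WT libraries.

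Within the desert the other CTCF sites were weak and found in some libraries. The site at 28519234 in 9530036O11Rik had a peak in 7 of 11 mutant libraries and 2 of 3 WT libraries, and so did 29117138, 75607 bp from Rnf32. The site at 28911244 in the lncRNA gene Gm35688 had a peak in 4 of 11 mutant and 2 of 3 WT libraries. None of the 3 had a RAD21 peak in any library. RAD21 peaks of the desert without a CTCF site were found at 28955278 in 3 of 12 mutant and 0 of 4 WT libraries, and at 28993673 in 2 of 12 mutant and 0 of 4 WT libraries, both in Gm35688.

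Inside Lmbr1 the constant CTCF sites were 29274949, 29275517, 29293422 and 29336028. Weaker CTCF sites in the gene were 29314804, detected in 2 of 11 mutant and 1 of 3 WT libraries at folds of at most 3.27, and 29348269, detected in 3 of 11 mutant and 2 of 3 WT libraries. A RAD21 site at 29271054 stood almost alone: it had a RAD21 peak in 10 of 12 mutant and 2 of 4 WT libraries, whereas the CTCF site 29271106 at that place had a peak in 3 of 11 mutant and 0 of 3 WT libraries. The position of the ZRS is not given in the sources used here, and no site was assigned to it.

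RAD21 peaks recurred at some of the constant CTCF sites. All 16 RAD21 libraries had a peak at 6 of the 14 constant CTCF sites (42.9%, against 39.8% of the 32078 CTCF sites of the genome). The highest RAD21 sites were 29293395 in Lmbr1, with percentiles 83.2 to 99.6 in the mutant libraries and 98.3, 98.3, 98.0 and 99.1 in WT, and 28451394 beside Shh, with 80.7 to 99.6 in the mutant libraries and 97.9, 97.6, 98.9 and 94.6 in WT. Both averaged 95.6 over the 16 libraries and the Lmbr1 site was the higher in 8 of them. The other constant RAD21 sites were 29389572 beyond Lmbr1 (mean 85.6), 29336022 in Lmbr1 (59.0), 28469987 beside Shh (46.1) and 28388380 in Rbm33 (24.8).

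The rank of RAD21 did not follow that of CTCF at each site, nor did it over the CTCF sites of the genome. At 28294205, beyond Rbm33, CTCF averaged percentile 92.7, while the RAD21 peak stood at 53.2 ± 23.9 of its list in mutant libraries and 57.2 ± 13.3 in WT libraries (percentile within the library's whole RAD21 list, 0 without a peak; SD, n = 12 and 4). Of 1330 CTCF sites of the genome within 2.5 percentiles of it in CTCF rank, 13.5% had a RAD21 mean as low, and their median was 88.2. RAD21 was found there in 11 of 12 mutant and 4 of 4 WT libraries, at median folds of 6.38 in mutant and 6.69 in WT libraries, against 16.05 in mutant and 15.8 in WT libraries at the site beside Shh.

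Opposite to that site were 2 of middle CTCF rank. At 28469947 beside Shh, the RAD21 peak stood at 77.4 ± 5.87 in mutant and 76.0 ± 5.42 in WT libraries, and 93.8% of 1788 sites of like CTCF rank were at or below it (median 36.2). At 29336028 in Lmbr1 it stood at 80.8 ± 9.19 in mutant and 85.2 ± 3.26 in WT libraries, and 91.2% of 1723 like sites were at or below it. At the low end, 29275517 in Lmbr1 had a CTCF peak in all 14 CTCF libraries and a RAD21 peak in 0 of 16, as did 29.9% of its 1101 like sites. The site near Mnx1 had RAD21 in 4 of 12 mutant and 1 of 4 WT libraries.

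**Figure D3:**
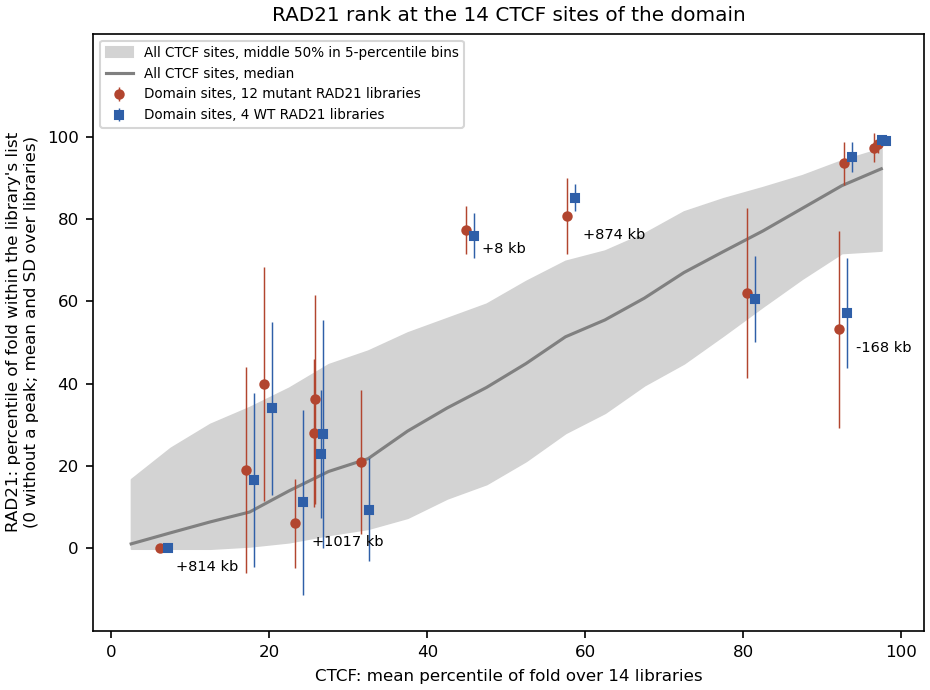
RAD21 percentile within each library's list (y axis, 0 without a peak; mean and SD over 12 mutant libraries as circles and 4 WT libraries as squares) against the mean CTCF percentile (x axis) at the 14 constant CTCF sites of the domain; the grey line and band are the median and middle 50% of all constant CTCF sites of the genome. By definition about 50% of the genome's sites lie outside the band. The sites at +8 kb and +874 kb from Shh lie above the band and the site at -168 kb below it in both groups. The sites at -11 kb and +831 kb lie just above its upper edge in both groups.

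Summits of the 2 antibodies were shifted at some sites. At 28469947 beside Shh the RAD21 summit lay to the right of the CTCF summit, toward the desert, in 13 of 16 libraries, by a median of 40.5 bp. At 29293422 in Lmbr1 it lay to the left, also toward the desert, in 14 of 16 libraries, by a median offset of -26.5 bp, with medians of -30.0 in mutant and -19.5 in WT libraries. At 28451390 it lay on either side (8 right, 7 left). At 29389541 beyond Lmbr1 it lay to the right, away from Lmbr1, in 11 of 16 libraries (median 31.5 bp). CTCF summits of single libraries scattered by -31 to 27 bp at 29293422 and by -46 to 42 bp at 28469947, so the offsets are close to the precision of a summit, and motif orientation was not analysed here.

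The mutants of the Hoxd sites, which lie on another chromosome, were then compared with WT littermates over the domain. No domain site passed the test. The domain medians of the mutant minus WT difference, on a normal score of the rank (1 unit is 1 SD of the ranks in a library), were -0.11 for CTCF and -0.15 for RAD21 over all mutants, against 0.0 over all sites for both. Of 14 CTCF sites 3 were higher and 11 lower, and of 6 RAD21 sites 2 were higher and 4 lower, which counts directions only. In single alleles the CTCF sites were 5 higher and 9 lower in both Del(CBS1) and Del(CBS1-5), and the RAD21 sites 3 higher and 3 lower in both. Of all CTCF sites 49.6% were lower over all mutants, 48.1% in Del(CBS1) and 50.4% in Del(CBS1-5). Of all RAD21 sites 50.5%, 50.2% and 49.3% were lower in the same order. Fits were made with limma over all sites found in every library, with Benjamini-Hochberg adjustment, and a site was called at an adjusted p under 0.05.

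Over the genome, the test of any allele against WT called 0.496% of CTCF sites and 0.347% of RAD21 sites. All mutants against WT called 0.00312% of CTCF and 0.0% of RAD21 sites, Del(CBS1) against WT 0.0% of CTCF and 0.00771% of RAD21 sites, and Del(CBS1-5) against WT 0.0156% of CTCF and 0.0463% of RAD21 sites. In the domain the 8 counts were 0 of 14 or 0 of 6. At an unadjusted limma p under 0.05 the domain had 0 CTCF sites for any allele, all mutants and Del(CBS1-5) and 1 for Del(CBS1), and for RAD21 it had 2, 0, 1 and 1 in the order any allele, all mutants, Del(CBS1), Del(CBS1-5). In that order, the genome shares at the same cutoff were 7.51%, 2.51%, 5.21% and 1.59% for CTCF. For RAD21 they were 11.1%, 3.93%, 5.08% and 9.55%. The fit took the spread of an unreplicated allele to be that of the replicated ones.

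The strong Lmbr1 site had the lowest limma p of the domain in 3 single-allele contrasts. These were CTCF in Del(CBS1) and RAD21 in Del(CBS1) and Del(CBS1-5). For CTCF in Del(CBS1-5) its difference was -0.09 ± 0.35, and the Mnx1 site had the lowest p. Its CTCF percentiles were 96.0, 88.6 and 98.5 in Del(CBS1) and 99.7, 97.8 and 99.3 in WT, so the groups overlapped. The difference was -0.73 ± 0.31 (SE; 95% interval -1.37 to -0.08), with an unadjusted limma p of 0.0287 and an adjusted p of 0.905. Its RAD21 percentiles were 93.4, 96.0 and 92.7 in the 3 Del(CBS1) libraries, 96.3 and 83.2 in the 2 of Del(CBS1-5) and 98.3, 98.3, 98.0 and 99.1 in WT, with both alleles below all WT libraries. The difference was -0.6 ± 0.28 for Del(CBS1), with a limma adjusted p of 0.934, and -0.79 ± 0.31 for Del(CBS1-5), with a limma adjusted p of 0.41, and neither passed. As single libraries were left out, the Del(CBS1-5) difference ran from -1.2, without Del(CBS1-5) replicate 1, to -0.37, without Del(CBS1-5) replicate 2, and the CTCF difference in Del(CBS1) from -0.95 to -0.48. Over all mutants the RAD21 difference was -0.42 ± 0.21 (95% interval -0.85 to 0.01). There 11 of the 12 mutant libraries, at 83.2 to 97.8, were below every WT library, while Del(CBS1-3) replicate 2, at 99.6, was above them. The site was named for its decreases. For it and the sites below, the share of all sites whose libraries separate as far was not computed, so the separation has no background.

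**Figure D4:**
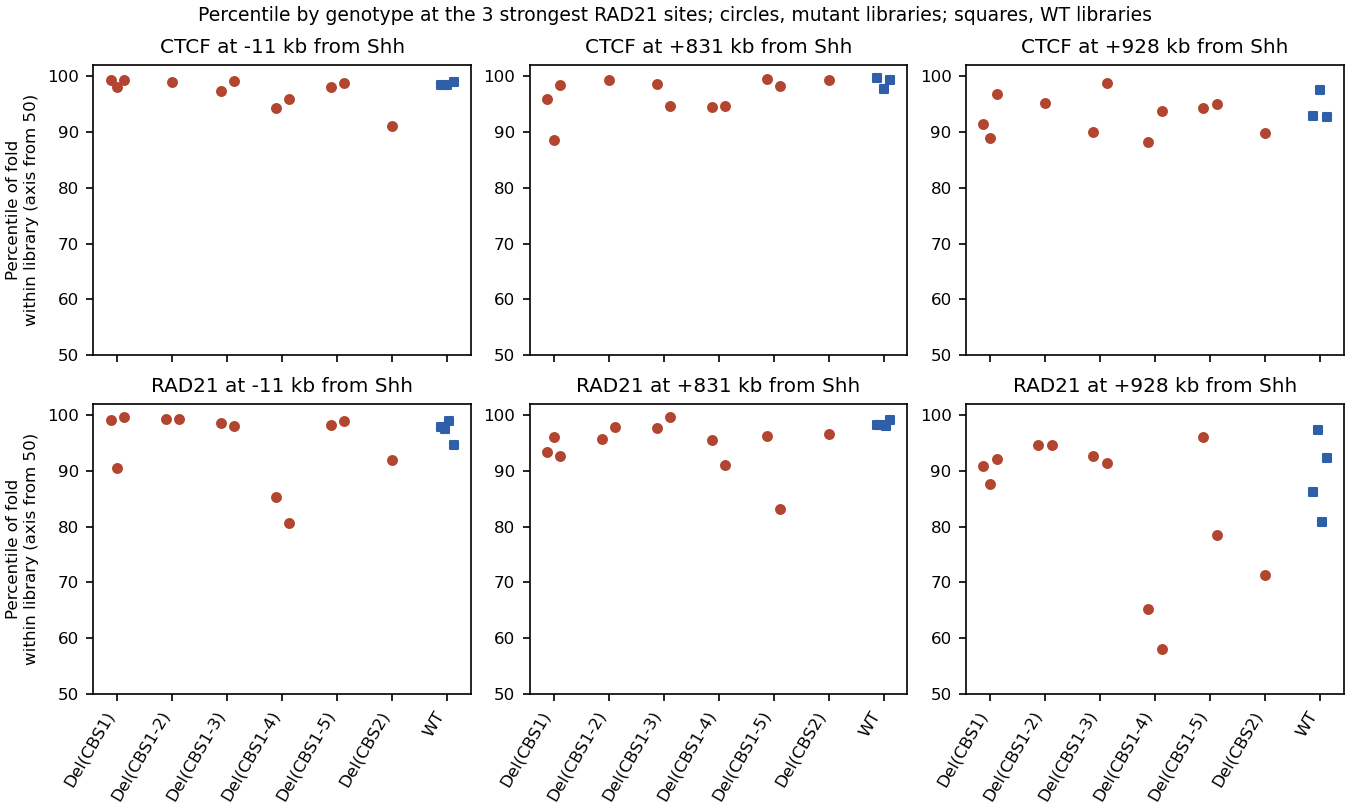
Percentile of fold within each library (y axis, drawn from 50) by genotype at the 3 strongest RAD21 sites, with the matching CTCF site above each; circles are mutant libraries and squares WT libraries. The RAD21 values of Del(CBS1-4) are the lowest at -11 kb (85.3 and 80.7) and at +928 kb (65.2 and 58.1), and the CTCF values at the same places are 88.2 or above.

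At 2 other RAD21 sites the alleles differed most from each other. Beside Shh, at 28451394, the Del(CBS1-4) libraries had percentiles of 85.3 and 80.7, the lowest of the 16, against 94.6 to 98.9 in WT, and Del(CBS1) replicate 2 and Del(CBS2) had 90.6 and 91.9. All other mutant libraries were at 98.1 or above. The limma test of any allele gave an unadjusted p of 0.00755 and an adjusted p of 0.247. Beyond Lmbr1, at 29389572, Del(CBS1-4) had 65.2 and 58.1, Del(CBS2) had 71.3 and Del(CBS1-5) replicate 2 had 78.5, all below the WT libraries at 86.2, 97.4, 80.8 and 92.3 . Its limma test of any allele gave an unadjusted p of 0.0219 and an adjusted p of 0.354. Both adjusted values missed the threshold. The CTCF percentiles of Del(CBS1-4) were 94.4 and 95.9 beside Shh, also below all WT libraries, and 88.2 and 93.8 beyond Lmbr1, against 92.7 to 97.5 in WT. The Del(CBS1-4) RAD21 lists had 37118 and 41178 peaks, within the range of the other libraries. Their highest domain folds, 13.5 and 12.54, were the lowest of the 16 RAD21 libraries, with 15.42 to 19.95 in the others. Those of the Del(CBS1-4) CTCF libraries, 12.06 and 12.31, were also the lowest for CTCF, the next being 12.44. Whether this bears on the ranks was not tested.

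The Mnx1 site had the largest decrease in CTCF rank over all mutants. It was at percentiles 8.97 to 31.7 in the mutant libraries and 27.0, 48.3 and 32.3 in WT, and 9 of the 11 mutant libraries were below all WT libraries. The difference was -0.44 ± 0.24 (95% interval -0.94 to 0.07), with a limma adjusted p of 1.0, and it was -0.27 without WT replicate 2, the library at 48.3. The largest increases were at 29274949 in Lmbr1, by 0.38 ± 0.3, and at 29336028, by 0.26 ± 0.26, also with a limma adjusted p of 1.0. At 29274949 the values were highest in Del(CBS1-4), 47.8 and 43.4, and Del(CBS1-3) replicate 2, 47.0, and WT had 11.5, 5.9 and 13.7.

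The intervals around these differences were wide. Over all mutants, the 95% intervals of the differences at the site beside Shh ran from -0.67 to 0.23 for CTCF and from -0.54 to 0.37 for RAD21, so larger shifts either way fall outside them and smaller ones do not. At the nearest site to Shh the intervals were wider, from -0.88 to 0.51 for CTCF at 28469947 and from -0.43 to 0.62 for RAD21 at 28469987. In Del(CBS1-5) the largest CTCF changes were -0.43 ± 0.33 at the Mnx1 site and -0.34 ± 0.45 at 28469947, and the largest RAD21 increase was 0.46 ± 0.38 at 28469987. That increase rested on 1 library, at 81.3 against 37.1 in its replicate, and without Del(CBS1-5) replicate 2 the difference was -0.15. Likewise, without Del(CBS1-5) replicate 1 the CTCF difference at 28469947 was 0.05.

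**Figure D5:**
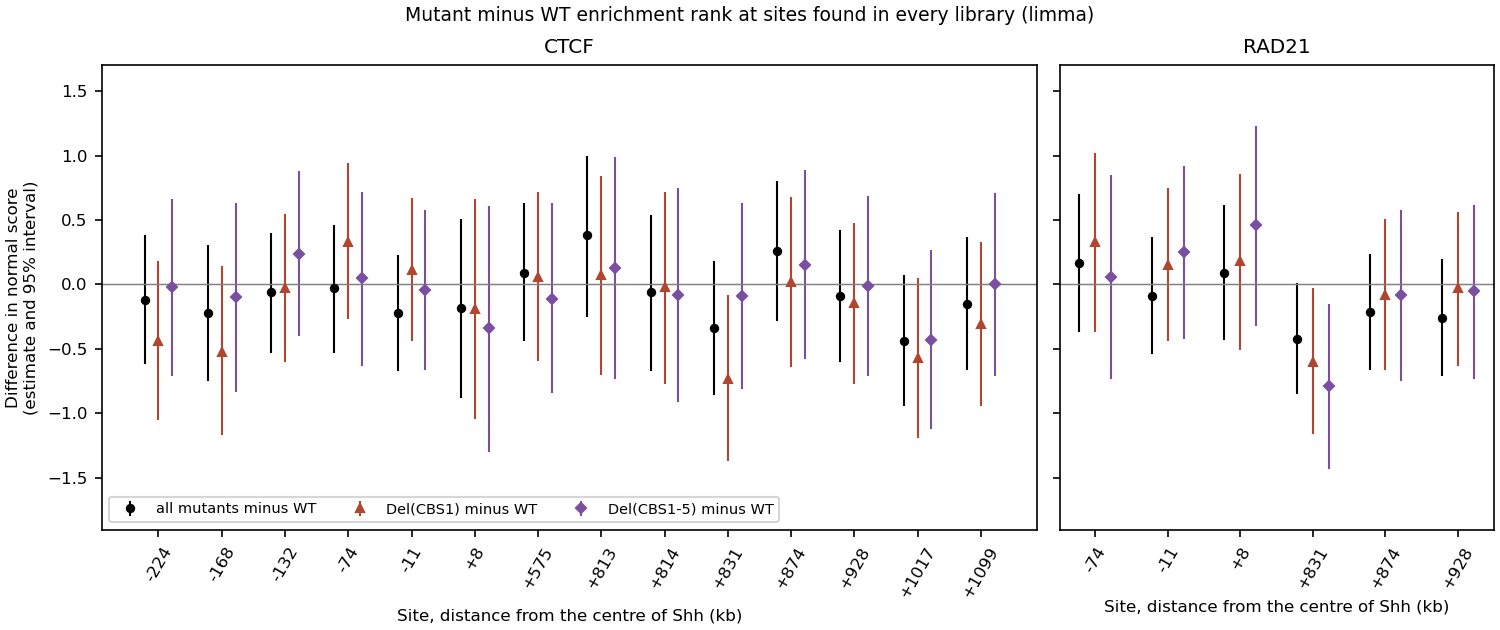
Mutant minus WT difference in normal score with its 95% interval (y axis) at the 14 CTCF sites (left) and 6 RAD21 sites (right), by distance from the centre of Shh in kb, for all mutants (circles), Del(CBS1) (triangles) and Del(CBS1-5) (diamonds). Most intervals cover 0, and the exceptions are at +831 kb, for CTCF in Del(CBS1) and for RAD21 in Del(CBS1) and Del(CBS1-5).

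Detection of the less constant sites was compared by Fisher's exact test, 2-sided, in all mutants against WT. No domain site was called among 24 CTCF and 21 RAD21 sites, and 0.0% of 64401 CTCF and 41134 RAD21 sites of the genome were, with adjustment over each set. At an unadjusted exact p under 0.05 there were 286 CTCF (0.444%) and 75 RAD21 (0.182%) sites in the genome and 0 in the domain. The smallest exact p that 11 mutant and 3 WT libraries allow is 0.00275, and for 12 and 4 it is 0.000549. After adjustment over the genome, a site at these values could be called only if many other sites reached them too. The absence of calls therefore does not describe the domain. The largest differences in detection were at 29036582, a side summit of the desert site, found in 5 of 11 mutant and 3 of 3 WT libraries (exact p = 0.2088), and at 29348269 in Lmbr1. For RAD21 the largest was at 29271054 in Lmbr1 (exact p = 0.2445), where mutant libraries had the peak more often by 33.3 percentage points. With peaks of -log10 q of at least 10 alone the difference was -16.7 points. Only Del(CBS2), at 22.3, and WT replicate 4, at 17.2, then had the peak, so it gives no direction. The RAD21 site 28238450 in Cnpy1 was found in 9 of 12 mutant and 2 of 4 WT libraries. Minor summits at 28329315 in Rbm33 and 28238058 in Cnpy1 followed: the Rbm33 summit was found in 4 of 11 mutant and 0 of 3 WT libraries, and the Cnpy1 summit in 7 of 11 mutant and 1 of 3 WT libraries.

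Summed over the domain, mutant and WT libraries overlapped in each measure. The median percentile of the 14 CTCF sites was 40.6 ± 8.07 in mutant libraries (SD, n = 11) and 45.5 ± 7.56 in WT libraries (n = 3), and that of the 6 RAD21 sites 72.8 ± 9.21 in mutant (n = 12) and 76.6 ± 5.95 in WT libraries (n = 4). A RAD21 peak was present at 78.0% ± 13.8 of the 14 CTCF sites in mutant libraries and 76.8% ± 14.8 in WT libraries. Over all CTCF sites of the genome these shares were 71.4% ± 11.5 in mutant and 72.8% ± 7.76 in WT libraries. The share was lowest in the shortest RAD21 lists and ranged from 50.0% to 92.9% in mutant and 57.1% to 92.9% in WT libraries.

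Genes of the Hedgehog pathway elsewhere in the genome were read in the same fits, at sites within 5 kb of the gene body of 26 genes, Shh among them. They include the ligands Shh, Ihh and Dhh, the receptor Ptch1, the signal transducer Smo, the Gli factors that act on target genes, and coreceptors and regulators such as Gas1, Boc and Sufu. Of 39 CTCF sites 0 were called for any allele or in any single contrast, and of 15 RAD21 sites 0. Median differences over all mutants were 0.02 for CTCF (21 higher, 18 lower) and 0.09 for RAD21 (9 higher, 6 lower), against 0.0 over all sites. The CTCF sites split otherwise in single alleles, with 24 higher and 15 lower in Del(CBS1) (median 0.12) and 13 higher and 26 lower in Del(CBS1-5) (median -0.11). For RAD21 the counts were 6 higher and 9 lower in Del(CBS1) (median -0.06) and 9 higher and 6 lower in Del(CBS1-5) (median 0.23). Over all sites the medians were 0.02 for CTCF in Del(CBS1) and 0.01 for RAD21 in Del(CBS1-5), and 0.0 in the other pair. Over all mutants the largest CTCF differences were -0.65 ± 0.31 near Gas1, which encodes a Hedgehog coreceptor (limma adjusted p of 1.0), and 0.46 ± 0.21 near Gsk3b, which encodes a kinase that phosphorylates Gli proteins (limma adjusted p of 1.0). The largest RAD21 difference over all mutants was 0.39 ± 0.23 near Lrp2, which encodes an endocytic receptor that binds Shh (limma adjusted p of 0.999). In single alleles the largest CTCF difference was -0.92 ± 0.38 near Gas1 in Del(CBS1), with a limma adjusted p of 0.905, and the largest RAD21 difference 1.07 ± 0.36 near Ihh in Del(CBS1-5), with a limma adjusted p of 0.312.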

How the data were processed

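ChIPmentation of CTCF and RAD21 gave 30 libraries, each with a deposited mm10 peak list of its own. MACS2 2.1.1.20160309 and bedtools 2.27.1 are named in the submitters' processing notes, as are Bowtie2 2.3.5, cutadapt 1.16, Picard 2.19.0 and SAMtools 1.9; options and any exclusion list are not given in the sources used here. In the deposited lists the authors give each peak a score, a fold enrichment (a ratio), -log10 p and -log10 q values and a summit offset; an interval with several summits is listed once for each. No read counts were given, so depth was unknown and no interval or floor from counts was computed. How much was called therefore varies with list length, 40011 to 88323 peaks for CTCF and 16676 to 48102 for RAD21.

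Folds were used as ranks within a library, since peaks were called separately. Summits within 150 bp were linked over all libraries of an antibody. A library detected a site when a peak covered its median summit, and the peak with the nearest summit gave the value. Ranks over sites found in every library were turned into normal scores and tested in R 4.3.3 with limma 3.58.1 (1 coefficient per genotype, trend and robust fitting, no replicate block). Detection was tested with Fisher's exact test. Both were adjusted by Benjamini-Hochberg over the genome at 0.05 and tested on simulated data. Values summed over the domain got no test. Gene spans and promoters are RefSeq's (GRCm38.p6); positions count from 1. No genome sequence was used, so motifs were searched in promoters only. The remaining work was done with pandas 2.3.3, numpy 2.4.6, matplotlib 3.10.9 and scipy 1.17.1 under Python 3.11.15.

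Named sites are those nearest each of the 6 genes, the 6 strongest per antibody, the largest 2 changes each way per contrast, the largest 4 detection differences, the sites flanking the longest interval and up to 4 pathway genes; other sites were named after their values were seen. The region, gene list and tests were chosen with earlier results of these data known.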

Additional observations from a re-analysis of the deposited data

How the results depend on the processing

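No domain site was called under any alternative, in each of 22 CTCF and 25 RAD21 refits of the rank tests and in 18 CTCF and 21 RAD21 repeats of the detection test. As reported, the rank tests called at most 0.496% of the genome's sites, so a lack of calls says little about 14 or 6 sites. The detection repeats called no site anywhere in the genome, and with so few libraries they could hardly do so. Their lack of calls does not describe the domain. Over the genome the counts moved more. CTCF sites called for any allele numbered 159, and from 7 (summit within 100 bp) to 556 (ranks of -log10 p) under the alternatives, with 265 without Del(CBS1-3) replicate 1 and 31 with the highest fold of the covering peaks, an alternative chosen after seeing the data. RAD21 sites called for any allele numbered 45, from 17 to 177, with 151 without Del(CBS1-5) replicate 1. For all mutants the ranges were 0 to 5 for CTCF (1 in the reported test) and 0 to 1 for RAD21 (0). For Del(CBS1) they were 0 to 16 for CTCF (0) and 0 to 2 for RAD21 (1), the 16 without Del(CBS1) replicate 1. For Del(CBS1-5) they were 0 to 17 for CTCF (5) and 0 to 159 for RAD21 (6), the 159 without Del(CBS1-5) replicate 1.

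The share of CTCF sites with RAD21, mutants minus WT, ran from -5.36 to 6.55 percentage points as single libraries were left out. The difference in median percentile ran from -8.91 to -1.43 for CTCF and from -5.62 to -1.85 for RAD21.

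Differences at single sites that changed sign had all missed the threshold, and the cause was not tested. With ranks of -log10 p these were -0.19 for CTCF at 28451390, 0.02 for RAD21 at 29336022 and -0.08 for RAD21 at 28469987 in Del(CBS1), and 0.06 for RAD21 at 29336022 and -0.03 at 28451394 in Del(CBS1-5). With single libraries left out, CTCF differences in Del(CBS1-5) ran from -0.73 to 0.05 at 28469947 and from -0.05 to 0.36 at 29336028. RAD21 differences at 28469987 ran from -0.07 to 0.28 over all mutants, from -0.06 to 0.43 in Del(CBS1) and from -0.15 to 1.07 in Del(CBS1-5). Those at 29336022 ran from -0.3 to 0.13 in Del(CBS1) and from -0.2 to 0.05 in Del(CBS1-5). The RAD21 detection difference at 29271054 was -16.7 percentage points with peaks of -log10 q of at least 10. That value rested on peaks in Del(CBS2) and WT replicate 4 alone. It was -8.33 with all lists shortened to the same length by rank of -log10 p.

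Libraries with the same replicate number did not in general deviate together. The correlation of deviations was -0.24 to 0.26 (median 0.02) over 21 CTCF pairs and -0.19 to 0.27 (median -0.01) over 31 RAD21 pairs. With different numbers the medians were -0.01 for CTCF and 0.0 for RAD21. No pairing by number was therefore assumed, though such ranges cannot show that no libraries were paired. With the number as a replicate block the RAD21 difference at 28469987 over all mutants was -0.1, and no domain site was called. Over the genome the block gave 146, 1, 0 and 8 CTCF sites and 29, 0, 1 and 0 RAD21 sites for any allele, all mutants, Del(CBS1) and Del(CBS1-5). Depth was unknown, so the weak sites could not be told apart from missed ones.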
